A study of Mus musculus with 20 samples.

Results

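Angiogenic factors and the genes that mark vessel cells were followed in the gastrocnemius, a mixed calf muscle, of adult male C57BL/6 mice in which a transcriptional coregulator had been removed from muscle or overproduced there. The set was a list of 37 genes named by symbol: 9 secreted factors, 2 hypoxia-inducible factors, 23 endothelial genes and 3 pericyte genes. No measured value entered the rule, but the genes were chosen with earlier results of these data known. Counts of members set against all genes are therefore descriptive. All 37 were measured, each by 1 probe set, among 19938 genes tested. The 20 arrays, 1 per sample, formed 4 groups of 5. NCoR1-MKO carried a muscle-specific knockout of the nuclear receptor corepressor NCoR1, and CON served as their controls. WT were wild-type controls of PGC-1alpha-mTg, muscle-specific transgenic mice for the coactivator PGC-1alpha. The sources used here do not give the genotype of CON, the driver of the knockout or the promoter of the transgene. The labels also leave unsaid whether every array had a mouse of its own. The p-values therefore set each group difference against the spread of these samples within groups, and that spread may be technical.

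Blood vessels grow when tissue cells release ligands that act on receptors of the endothelium, the cell layer that lines a vessel. The VEGF family acts through Kdr, Flt1 and Flt4 with neuropilins as coreceptors, and angiopoietins act through Tek. The PDGF-B ligand acts on pericytes, the supporting cells that wrap capillaries. Oxidative muscle is more densely supplied with capillaries than glycolytic muscle, and PGC-1alpha is known to raise Vegfa in muscle cells by way of the estrogen-related receptor ERRalpha. In both models the coregulator was altered in muscle, while the receptors and markers below belong mainly to cells of the vessel wall. In whole muscle, a change in the number of cells of a type and a change in RNA per cell cannot be told apart.

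The sequence just before a listed start of transcription is shown for 4 members that were higher in the transgenic mice. The members are the ligands Vegfa and Vegfb, their receptor Flt1, and Notch4, an endothelial Notch receptor. Each sequence is the 250 bases before the outermost start in the promoter set used, 5′ to 3′ on the gene's strand, in assembly GRCm38.p6. They lie at chr17:46032378-46032627 (minus strand), chr19:6987652-6987901 (minus), chr5:147726012-147726261 (minus) and chr17:34564045-34564294 (plus). For Flt1 and Notch4 the start used lies inside the RefSeq gene, which reaches out to chr5:147726438 and chr17:34564286. Capitals mark AGGAAG, the core read by ETS factors such as the member Erg, on either strand.
Vegfa: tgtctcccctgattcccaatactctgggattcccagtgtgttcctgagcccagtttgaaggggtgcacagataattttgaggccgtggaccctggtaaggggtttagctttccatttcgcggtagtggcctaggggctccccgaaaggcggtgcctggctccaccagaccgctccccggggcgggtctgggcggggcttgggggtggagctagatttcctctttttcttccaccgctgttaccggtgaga
Vegfb: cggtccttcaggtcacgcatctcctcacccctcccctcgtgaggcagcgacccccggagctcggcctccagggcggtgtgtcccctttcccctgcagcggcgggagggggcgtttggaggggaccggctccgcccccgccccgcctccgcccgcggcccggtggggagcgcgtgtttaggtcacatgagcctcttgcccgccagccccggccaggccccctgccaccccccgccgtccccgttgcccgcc
Flt1: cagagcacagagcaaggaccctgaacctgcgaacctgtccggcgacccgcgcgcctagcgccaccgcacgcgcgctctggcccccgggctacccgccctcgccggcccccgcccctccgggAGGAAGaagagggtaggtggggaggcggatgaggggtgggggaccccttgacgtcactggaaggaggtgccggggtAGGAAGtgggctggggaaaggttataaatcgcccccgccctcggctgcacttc
Notch4: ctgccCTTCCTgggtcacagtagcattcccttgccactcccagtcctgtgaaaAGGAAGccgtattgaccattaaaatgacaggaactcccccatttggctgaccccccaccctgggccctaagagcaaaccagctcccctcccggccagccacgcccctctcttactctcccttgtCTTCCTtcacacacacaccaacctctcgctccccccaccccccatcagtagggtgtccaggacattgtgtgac
Of the 37 members, 23 had such a window. Letters were searched on both strands. AGGAAG stood in 9 windows, against 29.2% of 27025 promoters of the same length, 1 per gene. The site of estrogen-related receptors, AAGGTCA, stood in 2, those of Nrp1 and Emcn, against 4.04% of all. ACGTG, the core of the hypoxia response element and also the inner part of the E-box CACGTG, stood in the Hif1a window alone, against 16.5% of all. That Hif1a window, at chr12:73907617-73907866, lies inside the RefSeq gene, which begins at 73901324. The Vegfa and Vegfb windows held none of the 3. A match describes letters in this window and shows no binding.

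The transgenic label was checked on its targeted gene. Ppargc1a, the transcript of the coactivator, read 9.38 to 9.75 in WT and 11.36 to 11.53 in PGC-1alpha-mTg. The groups did not overlap, and it rose by 1.83 ± 0.07, or 3.55-fold (limma adjusted p = 9.88e-15), and in NCoR1-MKO its difference from CON was -0.10 ± 0.07 (limma adjusted p = 0.634). Ncor1 is not analysed here, so the knockout label was not checked. Array medians were 6.03 to 6.08 for the knockout cohort (with CON) and 5.84 to 5.91 for the transgenic cohort (with WT). Arrays of a group correlated at r from 0.987 to 0.997, with the lowest value in PGC-1alpha-mTg. There, replicate 5 received the lowest weight, 0.353, when arrays were weighted by their fit. Values below are log2 expression values, and a change is the difference of group means ± SE with n = 5 arrays per group. A gene is said to have risen or fallen where the limma p, adjusted over all genes, was under 0.05. Levels are compared only within a gene, and only within a model and its own controls.

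PGC-1alpha-mTg was set against WT to read the effect of extra coactivator. The ligand genes Vegfa, Vegfb, Fgf1 and Angpt2, 17 of 23 endothelial genes and 2 of 3 pericyte genes were higher, while the ligand genes Pdgfa and Fgf2 and the endothelial gene Tmem100 were lower. Of the 37 members 27 changed, 24 higher and 3 lower, against 28.0% of all genes called in either direction, 11.9% higher and 16.1% lower. Of the 9 secreted factors 4 rose and 2 fell, and of the 2 hypoxia-inducible factors 1 rose. The median change of all members was 0.31, against 0.018 for all genes tested. On 23 of the 37 genes the 5 transgenic arrays did not overlap the 5 WT arrays, against 19.9% of all genes. Without PGC-1alpha-mTg 5, 24 members were higher and 4 lower.

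**Figure D1:**
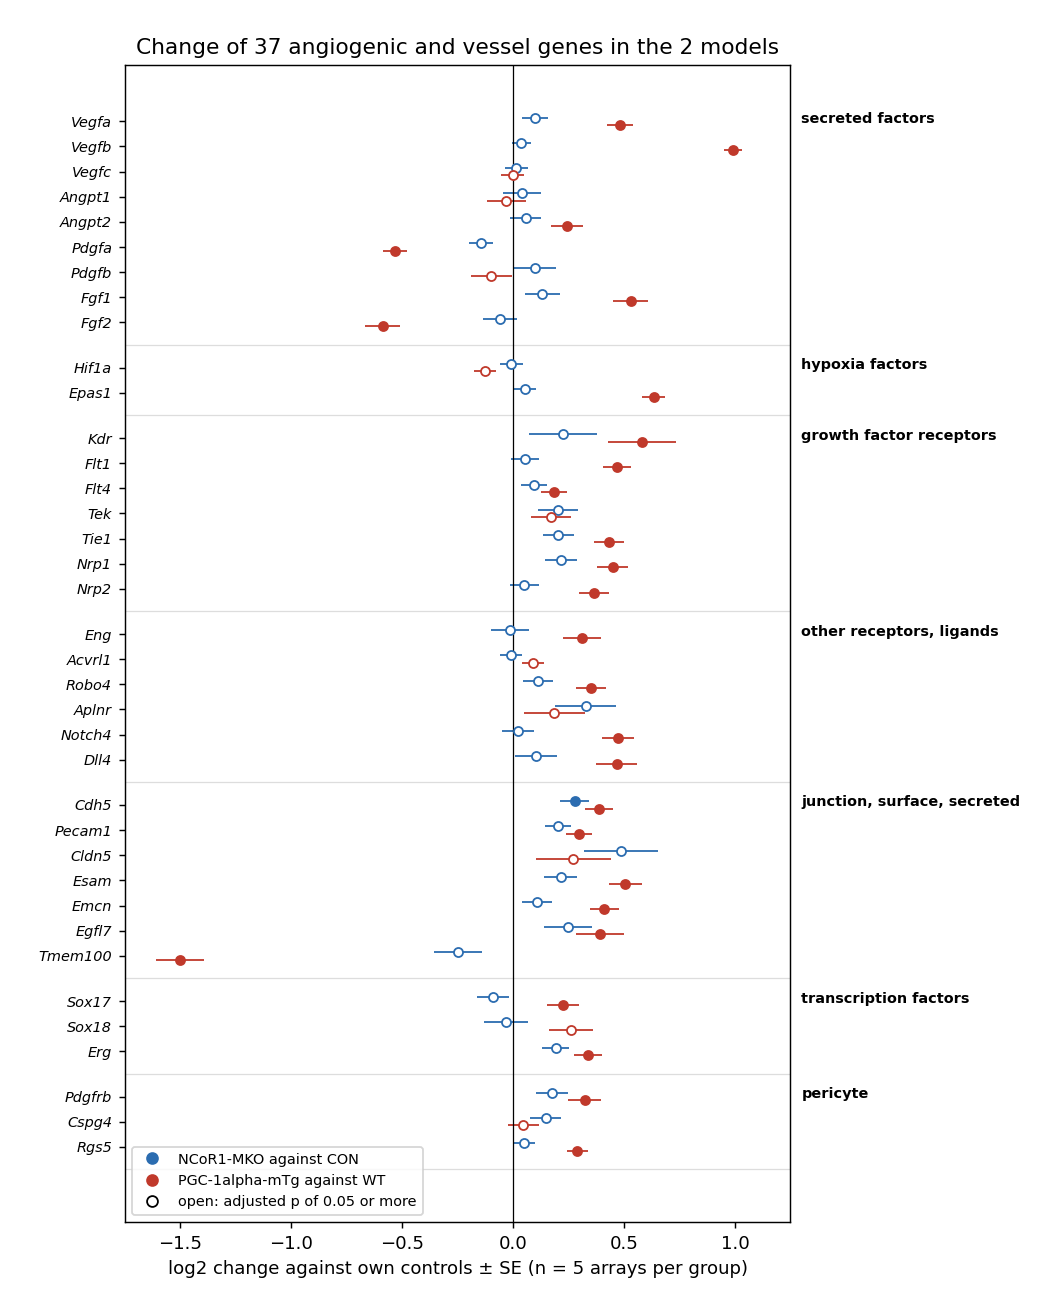
Log2 change ± SE (x axis) of the 37 genes (rows, by class) in NCoR1-MKO against CON (blue) and PGC-1alpha-mTg against WT (red), with n = 5 arrays per group. Filled points had an adjusted p under 0.05: 27 of the red points are filled, from -1.50 for Tmem100 to 0.99 for Vegfb, and 1 blue point, Cdh5 at 0.28.

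Among the secreted factors the largest rise was that of Vegfb, a ligand of Flt1. WT arrays 1 to 5 read 10.25, 10.23, 10.19, 10.21 and 10.26. PGC-1alpha-mTg arrays 1 to 5 read 11.16, 11.25, 11.27, 11.20 and 11.22. Every transgenic array was above every WT array, and the spread within either group was small beside the gap. The change was 0.99 ± 0.04, or 1.99-fold (limma adjusted p = 9.74e-14; probe set 10465559). In the knockout cohort Vegfb read 10.71 to 10.89 in CON and 10.79 to 10.89 in NCoR1-MKO, ranges that overlapped.

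Vegfa, the principal ligand of the endothelial receptor Kdr, read 10.20, 10.03, 9.99, 10.02 and 10.09 in the WT arrays. The transgenic arrays read 10.61, 10.50, 10.60, 10.52 and 10.51. The groups did not overlap, and Vegfa rose by 0.48 ± 0.06, or 1.40-fold (limma adjusted p = 9.56e-07). The knockout arrays of Vegfa read 11.00, 10.92, 10.82, 10.76 and 10.65, across the CON range of 10.67 to 10.86. Vegfc, the ligand of Flt4 that drives lymphatic growth, averaged 5.72 ± 0.04 (SD, n = 5) on the WT arrays against 5.71 ± 0.10 on the transgenic arrays, a change of -0.0017 ± 0.05 (limma adjusted p = 0.984). Both means lay below the array medians of this cohort, 5.84 to 5.91.

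The FGF pair split. Fgf1, an acidic fibroblast growth factor, read 8.19, 8.04, 8.04, 7.97 and 8.35 in WT. The transgenic arrays read 8.62, 8.56, 8.63, 8.57 and 8.86, with array 5 the highest. It rose by 0.53 ± 0.08 (limma adjusted p = 1.29e-05), and no transgenic array lay within the WT range. Fgf2, the basic fibroblast growth factor, read 8.02, 8.18, 8.26, 8.13 and 7.99 in WT. Its values in PGC-1alpha-mTg were 7.62, 7.31, 7.46, 7.57 and 7.70. All transgenic arrays were below all WT arrays, and Fgf2 fell by 0.59 ± 0.08, a 1.50-fold decrease (limma adjusted p = 3.33e-06).

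Pdgfa, which encodes the PDGF-A chain that binds PDGF receptor alpha, read 9.11, 8.99, 9.01, 8.97 and 8.81 in WT. Transgenic arrays 1 to 5 gave 8.50, 8.49, 8.39, 8.57 and 8.26. It fell by 0.53 ± 0.06, or 1.45-fold, with no overlap (limma adjusted p = 1.12e-07). Pdgfb, the endothelial ligand that recruits pericytes, had a difference of -0.10 ± 0.09 (limma adjusted p = 0.498). Of the angiopoietins, the Tek ligand Angpt1 had a difference of -0.03 ± 0.09 (limma adjusted p = 0.844). Angpt2, which destabilises vessels by acting on the same receptor, rose by 0.24 ± 0.07 (limma adjusted p = 0.0118), with 1 WT array, at 5.78, inside the transgenic range of 5.72 to 6.08. Apart from PGC-1alpha-mTg 1, at 6.08, all these arrays read Angpt2 below the array medians of this cohort, 5.84 to 5.91.

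Of the hypoxia-inducible factors, Epas1 encodes HIF-2alpha, which is abundant in endothelium. It read 9.86, 9.80, 9.86, 9.78 and 9.82 in WT. In PGC-1alpha-mTg it read 10.40, 10.38, 10.34, 10.48 and 10.68. It rose by 0.63 ± 0.05, or 1.55-fold, with no overlap (limma adjusted p = 1.78e-09). Hif1a, the more widely expressed relative, averaged 8.66 ± 0.11 (SD, n = 5) on the WT arrays against 8.53 ± 0.10 on the transgenic arrays. Its change of -0.13 ± 0.05 missed the threshold (limma adjusted p = 0.0691), and passed it when the dimmest 40 percent of genes were left out (adjusted p = 0.0446) or without WT 5 or PGC-1alpha-mTg 5 (lowest adjusted p = 0.0462).

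**Figure D2:**
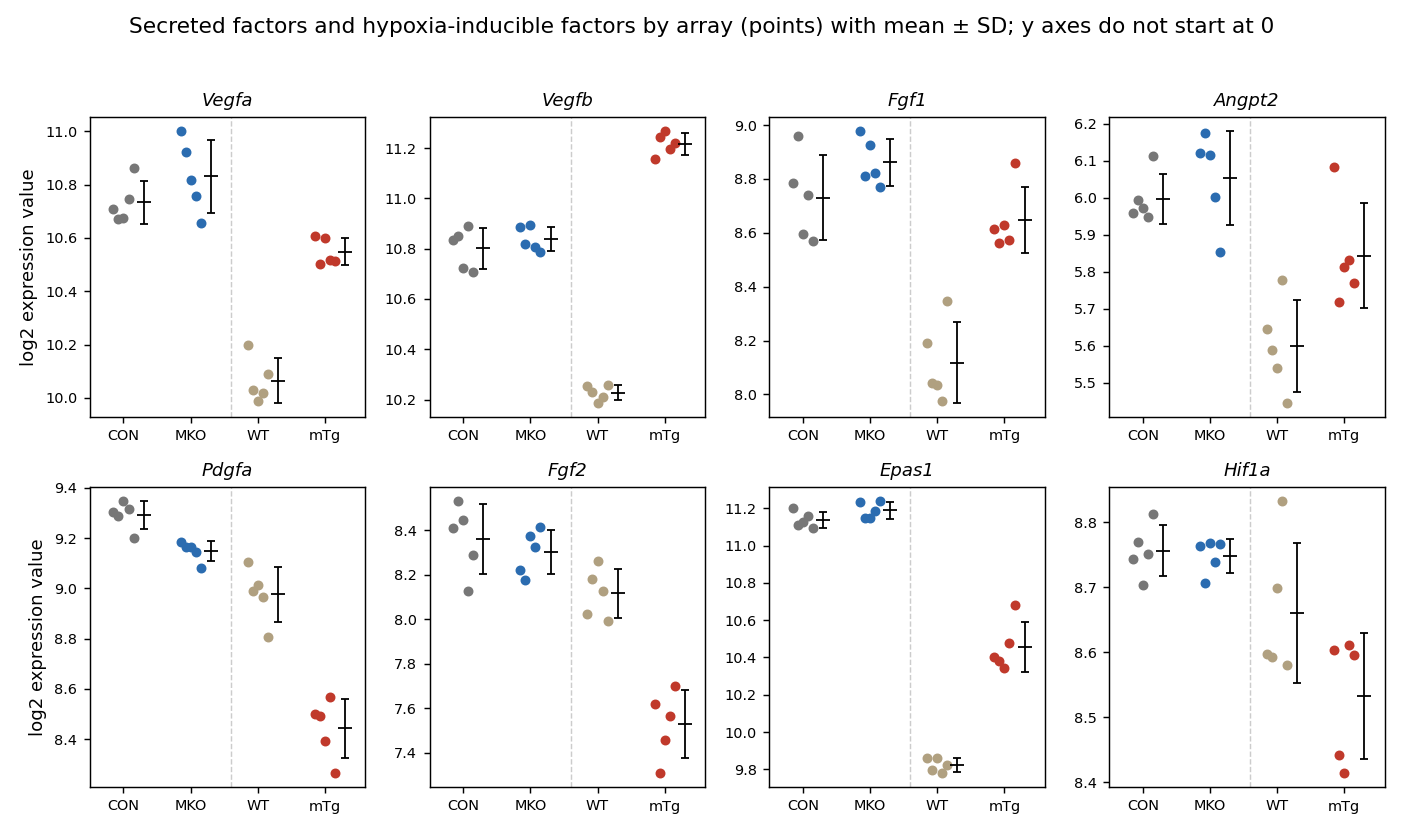
Log2 expression value (y axis, not starting at 0) of 8 ligand and hypoxia factor genes on each array, with mean ± SD of each group of 5; MKO and mTg stand for NCoR1-MKO and PGC-1alpha-mTg, and the dashed line separates the cohorts. Transgenic arrays lie above all WT arrays for Vegfa, Vegfb, Fgf1 and Epas1 and below them for Pdgfa and Fgf2.

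The receptors of these ligands rose with few exceptions. Of 7 growth factor receptor genes, 6 rose and none fell, at a median change of 0.43; at an unadjusted p under 0.05 limma also found none lower. Kdr, the main signalling receptor of Vegfa, read 8.51, 8.26, 7.92, 8.16 and 7.75 in WT. The transgenic arrays read 8.95, 8.65, 8.77, 8.65 and 8.49. It had the largest rise among the endothelial genes, 0.58 ± 0.15, or 1.50-fold, and the largest SE of those that rose (limma adjusted p = 0.00535); the highest WT array, replicate 1, lay just above the lowest transgenic one.

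Flt1, which binds both Vegfa and Vegfb, averaged 8.99 ± 0.01 (SD, n = 5) in WT, from 8.97 on WT 5 to 8.999 on WT 2. Its values in PGC-1alpha-mTg were 9.33, 9.29, 9.34, 9.57 and 9.74. The WT arrays were nearly equal and the transgenic ones spread upwards, with arrays 4 and 5 the highest; Flt1 rose by 0.47 ± 0.06 (limma adjusted p = 3.84e-06). The neuropilin genes Nrp1 and Nrp2, which encode coreceptors for VEGF, rose by 0.45 ± 0.07 and 0.36 ± 0.07 (limma adjusted p = 2.97e-05 and 0.000171), neither with overlap. Tie1, an orphan receptor that pairs with Tek, rose by 0.43 ± 0.07 (limma adjusted p = 3.68e-05). The angiopoietin receptor gene Tek itself had a difference of 0.17 ± 0.09 (limma adjusted p = 0.171), and passed after the 20 arrays were quantile-normalized together (change 0.23, adjusted p = 0.0406). Flt4, the Vegfc receptor typical of lymphatic endothelium, had the smallest rise, 0.18 ± 0.06 (limma adjusted p = 0.0195), lost without WT 3 (adjusted p = 0.0755) and with only the 10 arrays of this comparison (adjusted p = 0.0527).

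Of 6 other endothelial receptor and ligand genes, 4 rose and none fell (none by limma at an unadjusted p under 0.05 either). The Notch pair was among them. Notch4, a receptor largely restricted to endothelium, read 7.26, 7.38, 7.22, 7.09 and 7.28 in WT. Transgenic arrays 1 to 5 gave 7.58, 7.69, 7.69, 7.72 and 7.94, above every WT array. It rose by 0.47 ± 0.07 (limma adjusted p = 1.90e-05). Its ligand gene Dll4, which marks tip cells and arteries, rose by 0.47 ± 0.09 (limma adjusted p = 0.000475). A further 6 probe sets named for Notch4 carried a second symbol and were not used.

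Robo4, an endothelial receptor of the Roundabout family, rose by 0.35 ± 0.07 (limma adjusted p = 0.000346), and Eng, a coreceptor of the TGF-beta family, by 0.31 ± 0.09 (limma adjusted p = 0.00867). Acvrl1, the type I receptor that works with Eng, had a difference of 0.092 ± 0.05 (limma adjusted p = 0.190), and the apelin receptor gene Aplnr of 0.19 ± 0.14 (limma adjusted p = 0.355).

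Of 7 junction, surface and secreted markers of endothelium, 5 rose and 1 fell. Cdh5, the VE-cadherin of endothelial junctions, read 9.88, 9.68, 9.80, 9.79 and 9.64 in WT. In PGC-1alpha-mTg it read 10.11, 10.18, 10.17, 10.11 and 10.16. The transgenic arrays lay close together above the WT range, and Cdh5 rose by 0.39 ± 0.06 (limma adjusted p = 5.47e-05). Esam, an adhesion molecule of the same junctions, rose by 0.51 ± 0.07 (limma adjusted p = 1.25e-05), the sialomucin gene Emcn of capillaries and veins by 0.41 ± 0.07 (limma adjusted p = 4.51e-05) and Pecam1, or CD31, by 0.30 ± 0.06 (limma adjusted p = 0.000518). Egfl7, an endothelial secreted protein, rose by 0.39 ± 0.11 (limma adjusted p = 0.00905). Cldn5, the endothelial tight junction claudin, had a difference of 0.27 ± 0.17 (limma adjusted p = 0.256) although its transgenic arrays (8.09 to 8.55) all lay above WT (7.94 to 8.06). The shared estimate of its spread includes NCoR1-MKO, where its SD was 0.56, and with only the 10 arrays of this comparison it passed (adjusted p = 0.0258).

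Tmem100, a transmembrane protein gene downstream of BMP signalling in endothelium, went the other way and further than any other member. It read 7.01, 6.96, 6.93, 6.59 and 7.10 in WT. The transgenic arrays read 5.67, 5.27, 5.59, 5.33 and 5.23, below the array medians of this cohort, 5.84 to 5.91. The gap between the groups exceeded the spread within either, and Tmem100 fell by 1.50 ± 0.11, a 2.83-fold decrease (limma adjusted p = 2.51e-10; probe set 10380285). It was the single endothelial member with a negative change in this comparison.

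Of the endothelial transcription factor genes, Erg rose by 0.34 ± 0.06 (limma adjusted p = 0.000169) and the arterial factor gene Sox17 by 0.22 ± 0.07 (limma adjusted p = 0.0198). Sox17 missed the threshold without WT 1 or 2 or PGC-1alpha-mTg 4 (adjusted p up to 0.0698). Sox18 had a difference of 0.26 ± 0.10 (limma adjusted p = 0.0555) and passed under 4 other settings and without any 1 of 4 arrays (CON 4, NCoR1-MKO 3 and PGC-1alpha-mTg 2 or 3), at adjusted p from 0.0130. None of the 3 fell, also at an unadjusted p under 0.05 by limma.

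Of the 3 pericyte genes 2 rose and none fell (none by limma at an unadjusted p under 0.05 either). Pdgfrb, the PDGF-B receptor that defines pericytes, read 8.88, 8.76, 8.94, 8.97 and 8.84 in WT. Its values in PGC-1alpha-mTg were 9.18, 9.02, 9.10, 9.36 and 9.34, just above WT without overlap, a rise of 0.32 ± 0.07 (limma adjusted p = 0.00157). Rgs5, a regulator of G protein signalling in pericytes, read 10.03 to 10.18 in WT and 10.33 to 10.54 in PGC-1alpha-mTg, and rose by 0.29 ± 0.05 (limma adjusted p = 3.82e-05). Cspg4, the NG2 proteoglycan, had a difference of 0.047 ± 0.07 (limma adjusted p = 0.677).

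**Figure D3:**
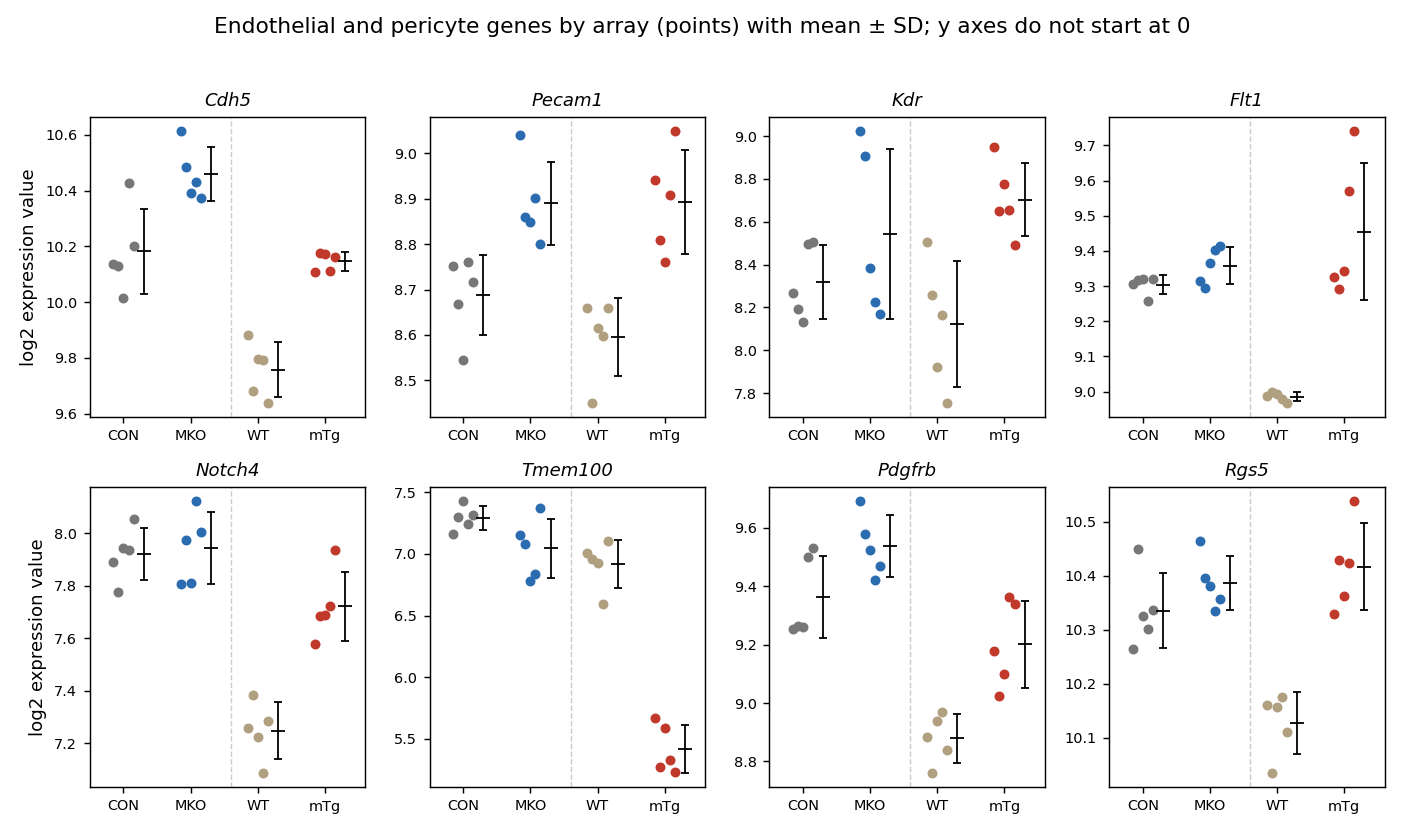
Log2 expression value (y axis, not starting at 0) of 6 endothelial and 2 pericyte genes on each array, with mean ± SD of each group of 5; MKO and mTg stand for NCoR1-MKO and PGC-1alpha-mTg. Transgenic arrays lie above all WT arrays for Cdh5, Pecam1, Flt1, Notch4, Pdgfrb and Rgs5, overlap WT for Kdr, and lie more than 1 log2 unit below the WT mean for Tmem100.

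The transgenic arrays were uneven. The mean of the 23 endothelial genes, relative to the WT mean, was lowest on PGC-1alpha-mTg 2 (0.17) and highest on PGC-1alpha-mTg 5 (0.37), while WT arrays ranged from -0.07 to 0.10. Without PGC-1alpha-mTg 5, 17 endothelial genes still rose and 1 fell. Leaving out any 1 of the 20 arrays gave 16 to 18 endothelial rises, and 4 secreted factors higher and 2 lower each time.

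**Figure D4:**
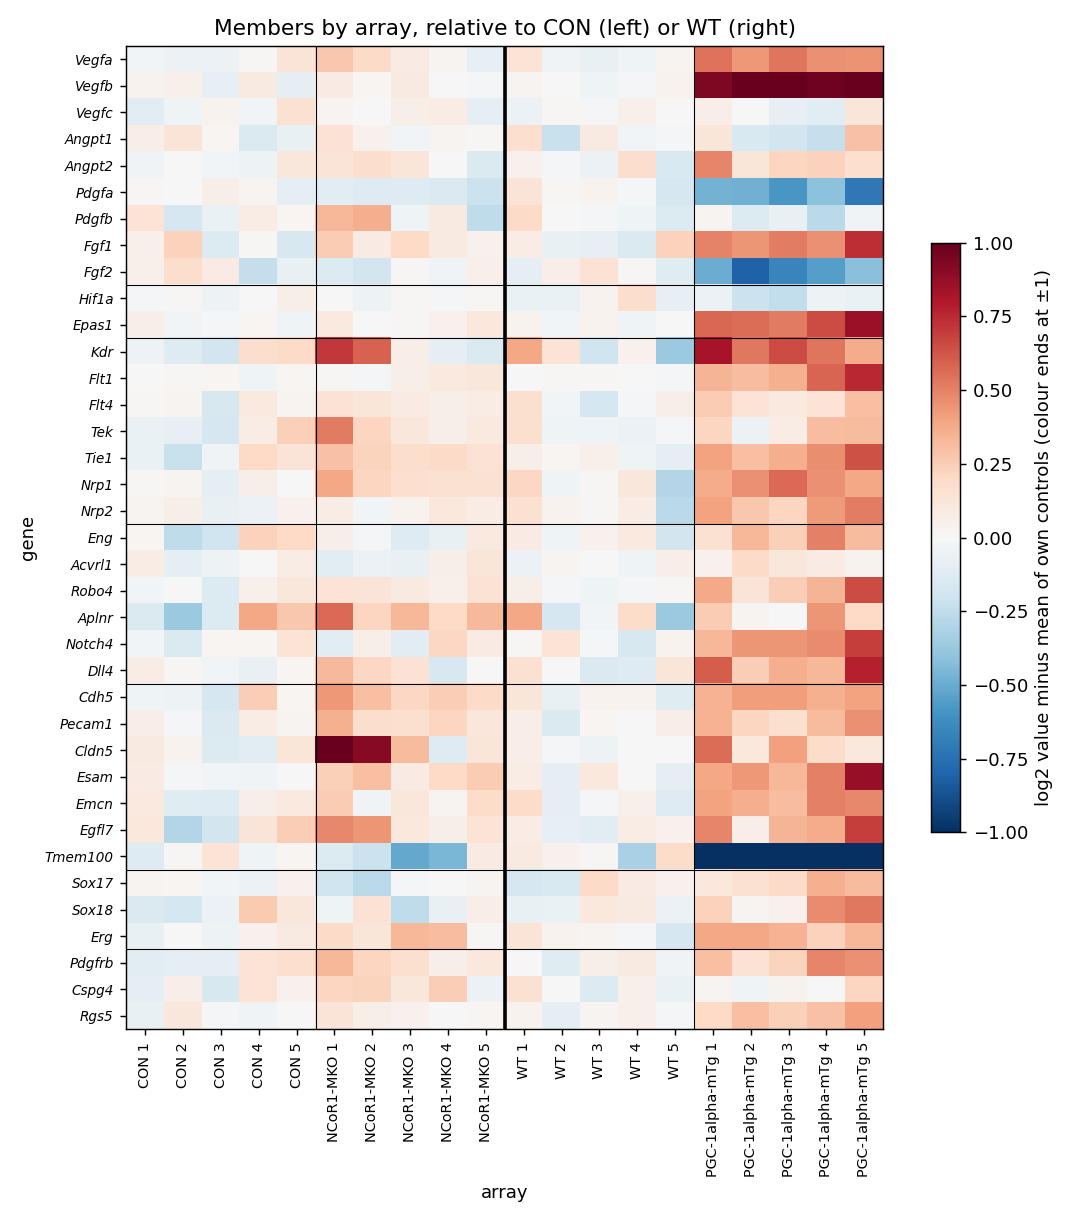
Log2 value of each of the 37 genes (rows) on each of 20 arrays (columns), minus the mean of CON for the left 10 columns and of WT for the right 10; red is higher, blue lower, and colours end at ±1. The 5 PGC-1alpha-mTg columns are red for most rows, with Tmem100, Pdgfa and Fgf2 blue, and NCoR1-MKO 1 and 2 are the reddest knockout columns for Kdr and Cldn5.

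Genes outside the list were read from further lists, also chosen with earlier results of these data known. Of 41 other endothelial genes none fell in PGC-1alpha-mTg, against 16.1% of all genes. Limma found 1 lower at an unadjusted p under 0.05, and 1 fell without PGC-1alpha-mTg 4 or 5. The median change of the list was 0.18, and 21 genes rose, against 11.9% of all genes. Examples were the sphingosine phosphate receptor gene S1pr1 (0.68 ± 0.10), Plvap of fenestrated vessels (0.62 ± 0.09), the water channel gene Aqp1 (0.60 ± 0.07) and Gpihbp1, which holds lipoprotein lipase on capillaries (0.55 ± 0.08). Their mean lay between 0.16 and 0.31 above WT on the transgenic arrays and between -0.06 and 0.03 on the WT arrays. Of 10 other pericyte genes 4 rose and 1 fell, against the same 11.9% and 16.1%. The rises were those of Ndufa4l2 (0.35 ± 0.07), Steap4 (0.32 ± 0.07), the potassium channel gene Kcnj8 (0.23 ± 0.07) and the Notch receptor gene Notch3 (0.18 ± 0.06). Abcc9, the regulatory subunit of that channel, fell (-0.33 ± 0.04). By sign 6 of the 10 were positive and 4 negative, and the list means overlapped: -0.046 to 0.12 on the transgenic arrays against -0.088 to 0.059 on WT. Abcc9 is also expressed in muscle fibres.

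Of 21 other ligands 4 rose and 5 fell, against 11.9% and 16.1% of all genes. Apelin, Apln, rose by 0.54 ± 0.08, Efnb2 by 0.48 ± 0.08, Angptl4 by 0.47 ± 0.14 and Esm1 by 0.32 ± 0.07. A pair of VEGF family ligands fell, Vegfd (-0.29 ± 0.05) and Pgf (-0.27 ± 0.09), a ligand of Flt1. The other falls were those of the insulin-like growth factor gene Igf1 (-0.80 ± 0.12), the repulsive semaphorin gene Sema3a (-0.78 ± 0.10) and Fgf7 (-0.51 ± 0.09). Of 12 angiogenesis inhibitors none rose (also none by limma at an unadjusted p under 0.05) and 4 fell, against the same 16.1%. By sign 6 of the 12 changes were positive and 6 negative, at a median of -0.016. The falls were those of the metalloproteinase inhibitor gene Timp2 (-0.42 ± 0.06), Adamts1 (-0.32 ± 0.08), thrombospondin 2, Thbs2 (-0.32 ± 0.09), and Serpinf1 (-0.24 ± 0.09). Serpinf1 lost its call without any 1 of 7 arrays and after the 20 arrays were quantile-normalized together.

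Most called genes of the hypoxia response list, which also holds regulators of the hypoxia-inducible factors, were lower. Of 19, 1 rose, the mitochondrial gene Higd1a, and 9 fell, against 11.9% and 16.1% of all genes, at a median change of -0.19. Hif1an, the asparagine hydroxylase that restrains HIF, fell by 0.54 ± 0.04 (limma adjusted p = 9.76e-10). The lipoprotein receptor gene Vldlr (-0.55 ± 0.07), the prolyl hydroxylase subunit gene P4ha1 of collagen synthesis (-0.49 ± 0.06) and the glucose transporter gene Slc2a1 (-0.40 ± 0.06) also fell. Arnt, which encodes the partner subunit of both factors, and Vhl, which marks them for degradation, were among the 9. The count and the median therefore pool such regulators with response genes.

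Markers of other cells of the muscle were read in the same way, and their counts stand against 11.9% of all genes higher and 16.1% lower. A single call among 5 to 8 markers is near those shares. Of 8 vascular smooth muscle markers 1 rose, Smtn (0.22 ± 0.05), with list means 0.05 to 0.16 above WT on the transgenic arrays and -0.04 to 0.05 on WT arrays. At an unadjusted p under 0.05 limma found 3 of them higher and none lower, and 7 of the 8 changes were positive. Of 5 lymphatic endothelial markers 1 fell, the lymphatic regulator Prox1 (-0.25 ± 0.07), and means were -0.35 to -0.11 against -0.07 to 0.04. All 5 lymphatic changes were negative, and limma found 4 lower at an unadjusted p under 0.05. Of 8 fibroblast markers 4 fell, the matrix genes Dcn (-0.17 ± 0.04) and Dpt (-0.25 ± 0.08), Pi16 (-0.25 ± 0.08) and Pdgfra (-0.26 ± 0.09), the receptor of the Pdgfa product; means were -0.33 to -0.14 against -0.13 to 0.11. Dpt lost its call without PGC-1alpha-mTg 3 and Pi16 without WT 1 or PGC-1alpha-mTg 2. Pdgfra lost its call without any 1 of 6 arrays, with only the 10 arrays of the comparison and with the replicate block.

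Of 5 muscle stem cell markers 3 fell, Myod1 (-0.53 ± 0.13), Cdh15 (-0.41 ± 0.06) and Myf5 (-0.29 ± 0.08), with means of -0.36 to -0.17 against -0.04 to 0.05. Of 8 macrophage markers 1 rose, C1qa (0.26 ± 0.08; lost without WT 5), with means of -0.09 to 0.24 against -0.21 to 0.07. Of 6 adipocyte markers 1 fell, Car3 (-0.81 ± 0.04), a carbonic anhydrase that muscle fibres also make, and means were -0.24 to 0.20 against -0.34 to 0.24. None of 5 blood cell and 4 Schwann cell and nerve markers was called (1 blood marker higher and 1 nerve marker lower by limma at an unadjusted p under 0.05). Blood cell list means were 0.09 to 0.15 against -0.03 to 0.07, and nerve list means -0.21 to 0.06 against -0.10 to 0.12. Of 10 muscle fibre markers 2 rose, myoglobin, Mb (0.29 ± 0.05), and the fast myosin gene Myh1 (0.32 ± 0.05), and 2 slow fibre genes fell, Tnnt1 (-0.72 ± 0.21) and Myh7 (-0.96 ± 0.30; lost without WT 1 or PGC-1alpha-mTg 4), with list means of -0.28 to -0.05 against -0.09 to 0.07. No detection call came with the values used here, so no marker could be called absent. The part of these cells in the vessel gene changes was not tested.

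**Figure D5:**
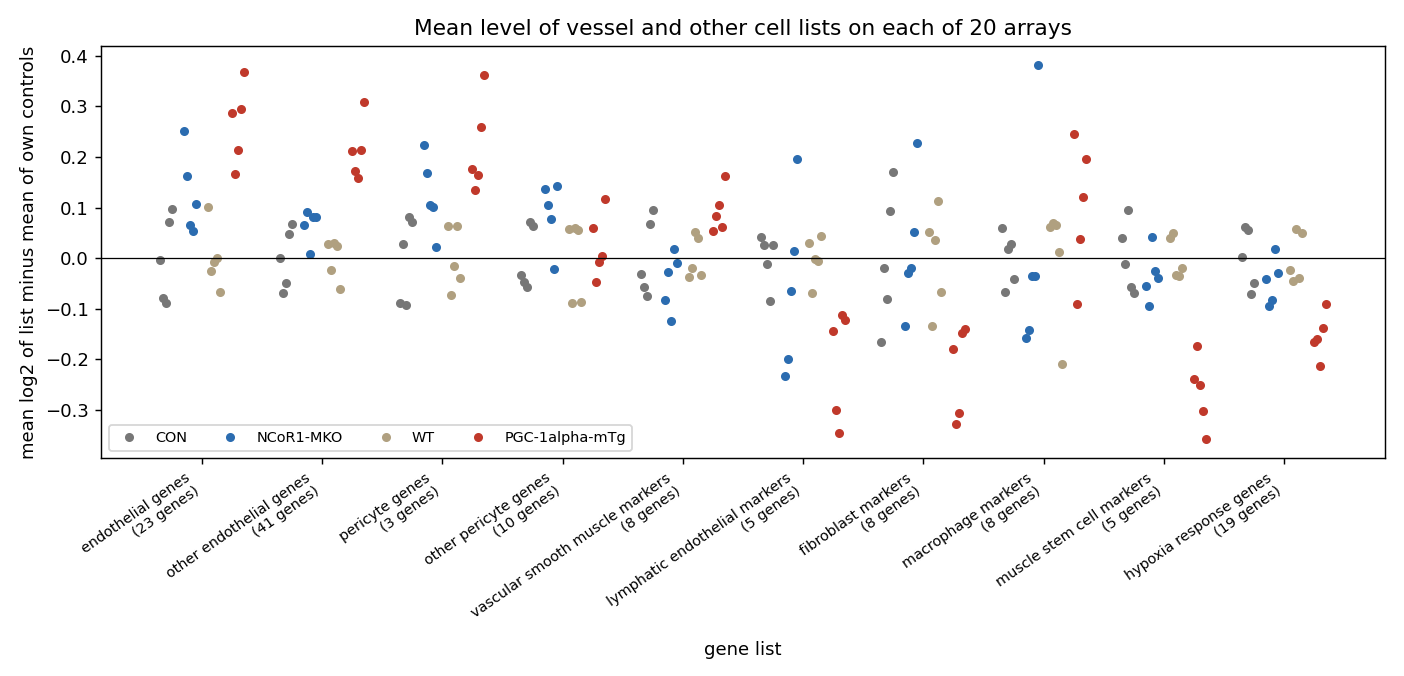
Mean log2 value of each gene list on each of 20 arrays, minus the mean of the own controls (y axis); points are arrays, coloured by group, with CON and WT centred on 0. On the 5 PGC-1alpha-mTg arrays the 23 endothelial genes lie at 0.17 to 0.37 and the 41 other endothelial genes at 0.16 to 0.31, while fibroblast (-0.33 to -0.14) and muscle stem cell markers (-0.36 to -0.17) lie below WT.

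NCoR1-MKO was set against CON to read the effect of losing the corepressor from muscle. Among the vessel genes 1 passed the test there. Of the 37 members 1 rose, Cdh5, and none fell, or 2.7%, against 2.63% of all genes called in either direction, 1.31% higher and 1.32% lower. At an unadjusted p under 0.05 limma found 12 members higher and 2 lower, against 1313 and 1043 of all 19938 genes. The median change was 0.098, against 0.0014 for all genes. Of 23 endothelial changes 18 were positive, against 10113 of the 19938 genes. Groups did not overlap for 4 of 37 members, Pdgfa, Nrp1, Pecam1 and Esam, against 4.17% of all genes. Leaving out single arrays moved the count of members called higher: it was 0 without CON 3 or NCoR1-MKO 1, and 2 without NCoR1-MKO 4, NCoR1-MKO 5, WT 5 or PGC-1alpha-mTg 5.

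Cdh5 read 10.14, 10.13, 10.02, 10.43 and 10.20 in CON. In NCoR1-MKO it read 10.62, 10.49, 10.39, 10.43 and 10.37. CON 4 lay inside the knockout range, and the other CON arrays below it. The rise was 0.28 ± 0.06, or 1.21-fold (limma adjusted p = 0.0176). It was lost without CON 3 or NCoR1-MKO 1 (adjusted p up to 0.0658), with only the 10 arrays of the comparison (adjusted p = 0.0730) and with the replicate block (adjusted p = 0.0504).

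Pecam1 read 8.75, 8.67, 8.54, 8.76 and 8.72 in CON. In NCoR1-MKO it read 9.04, 8.86, 8.85, 8.90 and 8.80, all above CON. The change of 0.20 ± 0.06 missed the threshold (limma adjusted p = 0.0818), and passed it after the 20 arrays were quantile-normalized together (adjusted p = 0.0421) and with array weights (adjusted p = 0.0429). Nrp1 had a difference of 0.22 ± 0.07 (limma adjusted p = 0.124) and Esam of 0.21 ± 0.07 (limma adjusted p = 0.160), both without overlap of the groups. Esam passed without PGC-1alpha-mTg 5 (adjusted p = 0.0190) and with only the 10 arrays of the comparison (adjusted p = 0.0376), and Nrp1 without WT 5 (adjusted p = 0.0407).

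The largest positive value in the knockout, that of Cldn5, came mainly from a pair of arrays. Cldn5 read 8.08, 8.02, 7.85, 7.88 and 8.11 in CON. In NCoR1-MKO it read 9.19, 8.89, 8.31, 7.86 and 8.11, so that arrays 1 and 2 stood far above CON and arrays 4 and 5 within its range. The change was 0.48 ± 0.17 (limma adjusted p = 0.157), and without NCoR1-MKO 4 it passed, at 0.64 (adjusted p = 0.0265). The same arrays were the highest for Kdr, at 9.03 and 8.91, against 8.13 to 8.51 in CON and 8.17 to 8.39 on the other knockout arrays; the change of Kdr was 0.22 ± 0.15 (limma adjusted p = 0.672). The mean of the 23 endothelial genes stood 0.25 above CON on NCoR1-MKO 1, 0.16 on NCoR1-MKO 2 and 0.05 to 0.11 on the others, while CON arrays ranged from -0.09 to 0.10.

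Among the secreted factors Pdgfa had the most negative difference in the knockout. It read 9.31, 9.29, 9.35, 9.32 and 9.20 in CON. In NCoR1-MKO it read 9.19, 9.16, 9.16, 9.15 and 9.08, all below CON by a narrow margin. The change of -0.14 ± 0.06 missed the threshold (limma adjusted p = 0.241). None of the 9 factors was called (1 lower and none higher by limma at an unadjusted p under 0.05), with changes from -0.14 to 0.13. Vegfa had a difference of 0.10 ± 0.06 (limma adjusted p = 0.595), Vegfb of 0.037 ± 0.04 (adjusted p = 0.863) and Epas1 of 0.052 ± 0.05 (adjusted p = 0.831). Tmem100, the member that fell most in the transgenic mice, read 7.15, 7.08, 6.78, 6.83 and 7.37 in NCoR1-MKO. Its CON arrays ranged from 7.17 to 7.43, with NCoR1-MKO 5 inside that range and the other knockout arrays below it, and the difference was -0.25 ± 0.11 (limma adjusted p = 0.331). The pericyte genes had positive changes of 0.05 to 0.17, none called (2 higher by limma at an unadjusted p under 0.05).

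Of the 161 genes of the further lists 4 were called in the knockout, near the 2.63% of all genes. None of 41 other endothelial genes was called (6 higher and none lower by limma at an unadjusted p under 0.05), at a median of 0.054. Of the other ligands Sema3a fell by 0.63 ± 0.10 (limma adjusted p = 0.000780) and Vegfd by 0.30 ± 0.05 (limma adjusted p = 0.000957). Among the hypoxia response genes Higd1a rose by 0.30 ± 0.07, a call lost without CON 5, with the mean of its probe sets and with the replicate block. P4ha1 fell by 0.26 ± 0.06, a call lost without CON 2 or 5 or NCoR1-MKO 3. No marker of smooth muscle, lymphatic endothelium, fibroblasts, adipocytes, macrophages, nerve, blood, muscle fibres or muscle stem cells was called by limma (1 fibroblast and 1 adipocyte marker higher and 2 muscle fibre markers lower at an unadjusted p under 0.05). Muscle fibre list means were -0.30 to -0.0048 on the knockout arrays against -0.16 to 0.13 on CON, and fibroblast list means -0.13 to 0.23 against -0.17 to 0.17. Macrophage list means reached 0.38, on NCoR1-MKO 5, against -0.066 to 0.060 on CON. The part of these cells in the vessel gene values was not tested.

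The difference between the effects was tested directly, each effect against its own controls. The transgenic effect exceeded the knockout effect for 10 members and was below it for 3, or 13 of 37, against 15.2% of all genes in either direction, 6.66% higher and 8.50% lower. The 10 included 3 ligand genes, Vegfb (0.95 ± 0.06, limma adjusted p = 4.83e-10), Fgf1 (0.40 ± 0.11, limma adjusted p = 0.0153) and Vegfa (0.39 ± 0.08, limma adjusted p = 0.00211), and Epas1 (0.58 ± 0.07, limma adjusted p = 4.20e-06). The endothelial genes among them were Notch4 (0.45 ± 0.10), Flt1 (0.42 ± 0.09), Sox17 (0.32 ± 0.10), Nrp2 (0.31 ± 0.09) and Emcn (0.30 ± 0.09), and the pericyte gene was Rgs5 (0.24 ± 0.07). Emcn and Sox17 lost this call without any 1 of 8 and 9 arrays, and Nrp2 with the replicate block. Other endothelial members gained it. Esam (limma adjusted p = 0.0650) did so under 4 other settings and without either of 2 arrays. Dll4 (limma adjusted p = 0.0696) did so under 3 other settings and without either of 2 arrays. Tie1 and Robo4 gained it under quantile normalization and without 1 array, Nrp1 without 1 array, and Eng without either of 2.

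The 3 below were Tmem100 (-1.25 ± 0.15, limma adjusted p = 3.13e-06), Fgf2 (-0.53 ± 0.11, limma adjusted p = 0.00157) and Pdgfa (-0.39 ± 0.08, limma adjusted p = 0.00128). For the general endothelial markers Cdh5 and Pecam1 the difference was 0.11 ± 0.09 and 0.10 ± 0.08 (limma adjusted p = 0.484 and 0.528), so the test did not separate their 2 effects. Of the 23 endothelial members 6 were called in this test. Of their 23 differences 19 were positive, against 10695 of the 19938 genes tested. Beside Tmem100, the negative ones were those of Tek, Aplnr and Cldn5, which were called in neither model nor in the difference. Their changes were 0.20, 0.33 and 0.48 in the knockout and 0.17, 0.19 and 0.27 in the transgenic mice.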

How the data were processed

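Total RNA (250 ng) was hybridised to Affymetrix Gene 1.0 ST arrays, per the labels' protocols. The authors deposited log2 values per probe set after robust multi-array averaging (RMA) in Partek, per the submitters' processing notes; versions, build and annotation are not given in the sources used here. Quantiles differed by at most 0.063 between arrays of a cohort and by 0.169 to 0.228 between cohorts, so levels were not compared across them.

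Of 35556 probe sets, 21789 carried 1 gene symbol in the platform annotation, 1621 several and 12146 none. Probe sets with 1 symbol were used, and of a gene with several the brightest, leaving 19938 genes. In limma 3.58.1 (R 4.3.3), lmFit and eBayes estimated the 4 group means from the 20 arrays together, with 3 contrasts: each model against its controls, and the difference of those effects. P-values were adjusted by Benjamini-Hochberg over all genes. A gene was called at an adjusted p under 0.05. The arrays' number limits the precision.

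The 37 genes and 14 further lists (161 of 183 genes measured) were chosen with earlier results of these data known. From each further list up to 4 called genes with the smallest p in each comparison were named with values; Angptl4, Esm1, Efnb2, Pgf, Fgf7, Notch3, Arnt and Vhl were named after their values were seen. The fit was tested on simulated data. Promoters came from a set of starts in GRCm38.p6, some of which lie inside the RefSeq gene bounds. Alternatives were quantile normalization, median centring, a filter on dim genes, the mean of probe sets, eBayes with trend, array weights, only the 10 arrays compared, the replicate number as a block, and leaving out each array.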

Additional observations from a re-analysis of the deposited data

Results flagged for a closer look

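Several single arrays stood apart from the other 4 of their group by the Dixon test, 14 of 296 groups of 5 tested over the named genes, where chance alone flags about 1 in 20. Among the 37 genes, Angpt2 read 6.11 on CON 5 (others up to 5.99), Flt1 9.26 on CON 4 (others from 9.31), Tek 8.55 on WT 1 (others up to 8.37), Nrp1 9.36 on NCoR1-MKO 1 (others up to 9.19) and Fgf1 8.86 on PGC-1alpha-mTg 5 (others up to 8.63). Among the other named genes, P4ha1 read 8.61 on NCoR1-MKO 3 and 8.39 on PGC-1alpha-mTg 4, Vldlr 10.68 on WT 2, Aqp1 10.55 on WT 5, and Gpihbp1 8.86 on PGC-1alpha-mTg 5. Car3 read 13.23 on WT 4, Mb 12.67 on WT 1, Myod1 7.85 on PGC-1alpha-mTg 2 and Myf5 5.50 on NCoR1-MKO 2. Of these arrays PGC-1alpha-mTg 5 also had the lowest array weight.

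The transgenic and knockout effects differed for 29 of the 74 named genes in the test of the difference itself (limma, adjusted p under 0.05), against 15.2% of all genes. The 37 of them outside the vessel list were nearly all named for a small p in either comparison that enters this difference, which raises the count. Among the 37 genes the transgenic effect was above the knockout effect by 0.95 for Vegfb, 0.58 for Epas1, 0.45 for Notch4, 0.42 for Flt1, 0.40 for Fgf1, 0.39 for Vegfa, 0.32 for Sox17, 0.31 for Nrp2, 0.30 for Emcn and 0.24 for Rgs5. The differences of the other way were -1.25 for Tmem100, -0.53 for Fgf2 and -0.39 for Pdgfa. Outside the 37, the difference was 1.93 for the targeted Ppargc1a, 0.56 for Plvap, 0.53 for S1pr1, 0.49 for Aqp1, 0.45 for Gpihbp1, 0.36 for Apln and 0.27 for Myh1. It was -0.94 for Car3, -0.56 for Igf1, -0.52 for Hif1an, -0.39 for Adamts1, -0.37 for Timp2, -0.36 for Vldlr, -0.35 for Slc2a1, -0.31 for Abcc9 and -0.29 for Cdh15. For Pdgfa both effects had the same sign and both sets of arrays separated from their own controls. For Tmem100 both changes were negative too, and in the knockout the groups overlapped.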

How the results depend on the processing

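In PGC-1alpha-mTg, 25 of the 27 called members kept their call under all 8 other settings and without any 1 of the 20 arrays; Flt4 and Sox17 did not, as given above. The number of members called higher in NCoR1-MKO was 1, and became 2 after quantile normalization, 3 with array weights and 0 with the replicate block; leaving out 1 array gave 0 to 2, with 0 without CON 3 or NCoR1-MKO 1. The number of other endothelial genes called lower in PGC-1alpha-mTg was 0, and 1 after median centring or without the dimmest genes; leaving out 1 array gave 0 to 1, with 1 without PGC-1alpha-mTg 4 or 5. Signs turned only for uncalled changes near 0. After quantile normalization the knockout changes became 0.0043 for Hif1a and 0.0042 for Eng, and the difference of effects 0.028 for Tek. Leaving out 1 array, the knockout changes ranged from -0.014 to 0.052 for Vegfc, -0.021 to 0.0063 for Hif1a, -0.077 to 0.046 for Eng, -0.043 to 0.012 for Acvrl1, -0.022 to 0.058 for Notch4 and -0.077 to 0.034 for Sox18. The transgenic changes ranged from -0.033 to 0.025 for Vegfc and -0.11 to 0.019 for Angpt1, and the differences from -0.054 to 0.012 for Vegfc and -0.090 to 0.050 for Tek. The cause of these turns was not tested. Replicate numbers gave no sign of pairing, which does not exclude it. After each gene's group mean was subtracted, same-numbered arrays correlated at -0.232 to 0.196, and 2 of 10 matched their own number best. With the replicate block, 24 members rose and 3 fell in PGC-1alpha-mTg, and the calls in the knockout over all genes went from 525 to 370. Leaving out an array gave 370 to 617 calls over all genes in the knockout, 4868 to 6544 in the transgenic mice and 2648 to 3736 for the difference. With only the 10 arrays compared, the difference was not run. With 5 arrays a group the SE of a member's change was 0.04 to 0.17, which limits what changes of about 0.2 can show.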
